A study of Mus musculus with 2 samples.

Results

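The transcripts of 9 genes linked to cyclic AMP (cAMP) were measured in dissociated primary mouse pituitary cells kept in RNA-Best or in RNAlater. The 9 genes were chosen by symbol and comprised the nuclear receptor genes Nr4a1, Nr4a2 and Nr4a3, the cAMP-induced regulators Crem and Sik1, the phosphodiesterase genes Pde4b, Pde4d and Pde10a, and Rgs2. They are 9 of the 47069 genes in the count table, and all 9 passed the limit of a mean of 1 CPM (counts scaled to a library of 1000000), as did 16504 genes in all. RNA-Best is a buffer meant to keep both RNA and the intact single cell, and RNAlater is an RNA stabilizer that served as the reference. Both samples were pooled pituitary cells of randomly cycling C57BL/6 female mice aged 10 to 12 weeks, with 500000 to 700000 cells of 5 glands in each, digested with collagenase and pancreatine before storage. With 1 library for each stabilizer there is no measure of the spread between replicates, and differences are given as sizes without a test. All intervals are 95% intervals of the counting error alone. They treat reads as independent, but PCR copies of 1 molecule are counted as separate reads, so the intervals can be too narrow. A difference between the libraries can stem from the stabilizer, the glands pooled or the library, and these cannot be told apart.

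Pituitary cells answer many hypothalamic hormones through receptors that act on adenylyl cyclase, the enzyme that makes cAMP. cAMP activates protein kinase A, which phosphorylates the transcription factor CREB, and CREB bound to cAMP response elements switches on early genes within minutes. Several of the induced products then damp the signal. Crem can give rise to a repressor that occupies the same elements, Sik1 keeps CREB coactivators out of the nucleus, phosphodiesterases break down cAMP, and Rgs2 shortens the active state of G proteins. The Nr4a receptors are orphan nuclear receptors made in the same early wave, and in corticotropes they act on the Pomc gene.

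In CPM, 7 of the 9 genes were lower in RNA-Best than in RNAlater, as were 67% of all genes tested. By a fixed rule of size, Nr4a3 alone was at least 2-fold lower in RNA-Best, against 4.99% of all genes tested, and none of the 9 was at least 2-fold higher, against 0.273%. The median log2 ratio of RNA-Best to RNAlater, computed with 0.5 CPM added to both values, was -0.62 for the 9 genes and -0.18 for all genes tested. The 7 genes that were lower in CPM also lay below the median of all genes, while Crem and Rgs2 lay above it. Together the 9 genes made up 0.207% of the RNA-Best counts (0.206% to 0.209%, Clopper-Pearson) and 0.288% of the RNAlater counts (0.287% to 0.290%). Scaling by TMM or by DESeq2 size factors raised the median of all genes by 0.18, and the 2-fold call of Nr4a3 was then lost, with log2 ratios of -0.96 and -0.97. In bulk RNA, fewer cells of a type and less RNA per cell cannot be told apart.

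**Figure D1:**
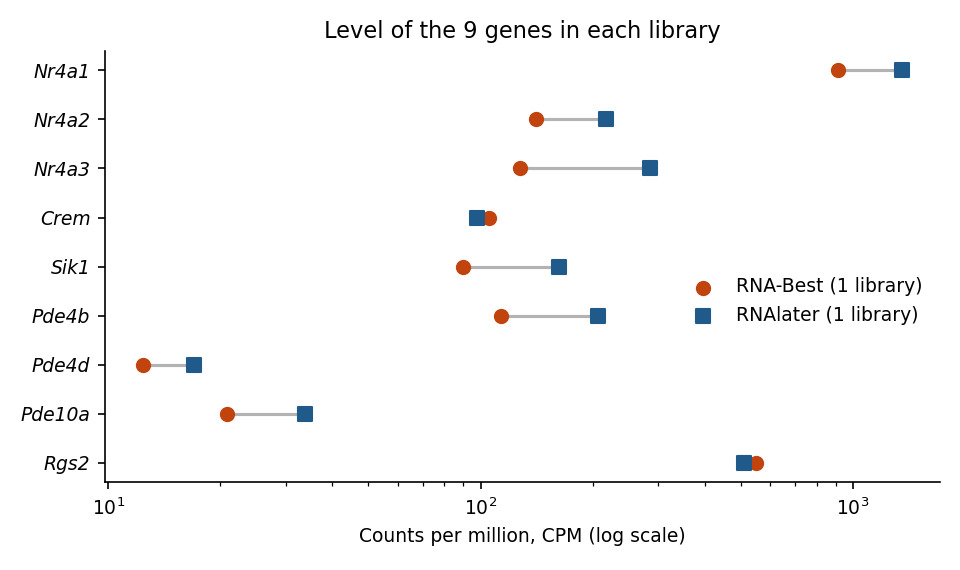
Level of each of the 9 genes in CPM (log scale) in the RNA-Best library (circles) and the RNAlater library (squares), 1 library each, with a line joining both values of a gene. Crem and Rgs2 are the 2 genes whose circle lies to the right of the square, and the widest gap is that of Nr4a3, at 128 and 285 CPM.

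The Nr4a receptors were all lower in RNA-Best, and Nr4a3 differed most. Nr4a1, also called Nur77, lies at chr15:101254269-101274795 (GRCm38, plus strand; ENSMUSG00000023034.6) and was counted 49196 times in RNA-Best and 60825 times in RNAlater, or 912 and 1354 CPM. Its log2 ratio was -0.57 (interval -0.59 to -0.55), so that the RNA-Best library held 67.4% of the RNAlater level. Nr4a1 was the most abundant of the 9 in either library. Nr4a2, also called Nurr1, lies at chr2:57106830-57124003 on the minus strand (ENSMUSG00000026826.13) and had 141 CPM with RNA-Best against 217 CPM with RNAlater. This gave a log2 ratio of -0.62 (-0.67 to -0.58), close to that of Nr4a1. Nr4a3, also called Nor1, lies at chr4:48045153-48086447 on the plus strand (ENSMUSG00000028341.9) and had 128 and 285 CPM. Its log2 ratio of -1.15 (-1.20 to -1.11) was the lowest of the 9 and lay at the 2.76th percentile of all genes tested.

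The ratio among the receptors does not depend on the scaling of the libraries, so the makeup of the family was also compared. Of the counts in the Nr4a receptor genes, Nr4a1 took 77.3% with RNA-Best (76.9% to 77.6%, Clopper-Pearson) against 73.0% with RNAlater (72.7% to 73.3%). Nr4a3 took 10.8% (10.6% to 11.1%) and 15.3% (15.1% to 15.6%). The share of Nr4a2 was 11.9% (11.7% to 12.2%) and 11.7% (11.5% to 11.9%), in the same order, and these intervals overlapped. The family thus differed in its makeup by a lower share of Nr4a3 and a higher share of Nr4a1 in RNA-Best. For both, the intervals of the 2 libraries did not overlap. These shares take no account of transcript length. At the length of each gene, the trend over all genes tested (below) stood at -0.52 for Nr4a3 and -0.11 for Nr4a1. Relative to it, their log2 ratios were -0.64 and -0.46. The counts of Nr4a2 and Nr4a3 held fractions of reads and those of Nr4a1 did not. Fractions arise where reads are divided between features, and the option behind them was not given in the sources used here.

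The promoters of the receptors are shown because they share letters of the cAMP response element. The 9 genes were chosen as linked to cAMP, so such letters were not independent of the choice. The windows came from RefSeq on GRCm38.p6, each reaching from 250 bases before to 50 bases after a start site, and 7 of the 9 genes, all but Crem and Sik1, had 11 windows between them. The core TGACG, or CGTCA on the other strand, was found 4 times in the window of each Nr4a receptor. At least 4 such cores were held by 76 of the 32851 windows of all genes, or 0.231%, and at least 1 by 20.8%. These windows include genes that did not pass the limit of 1 CPM. The full palindrome TGACGTCA, in which both cores overlap, was in none of the windows of these genes and in 1.79% of all windows. The element AAAGGTCA (TGACCTTT on the other strand), which Nr4a receptors bind as monomers, was also in none of them and in 1.51% of all windows. No match says only that these letters are not in the window. The stretches below read 5′ to 3′ on the strand of the gene and end at the start site or at the first base that GENCODE places in an exon, with the cores in capitals.
Nr4a1, chr15:101266596-101266845, plus strand: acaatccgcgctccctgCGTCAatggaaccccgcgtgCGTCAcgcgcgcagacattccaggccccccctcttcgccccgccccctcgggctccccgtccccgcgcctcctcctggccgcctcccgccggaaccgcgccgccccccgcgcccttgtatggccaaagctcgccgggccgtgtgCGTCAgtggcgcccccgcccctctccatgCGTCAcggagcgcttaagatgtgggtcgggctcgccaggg
Nr4a2, chr2:57124004-57124253, minus strand: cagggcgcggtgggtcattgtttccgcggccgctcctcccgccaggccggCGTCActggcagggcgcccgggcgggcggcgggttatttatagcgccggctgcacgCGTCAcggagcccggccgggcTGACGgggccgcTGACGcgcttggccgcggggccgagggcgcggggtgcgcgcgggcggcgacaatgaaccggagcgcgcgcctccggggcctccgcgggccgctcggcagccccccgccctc
Nr4a3, chr4:48045055-48045152, plus strand: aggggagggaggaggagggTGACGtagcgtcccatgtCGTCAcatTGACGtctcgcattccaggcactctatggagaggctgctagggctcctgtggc
Rgs2, chr1:144004162-144004399, minus strand: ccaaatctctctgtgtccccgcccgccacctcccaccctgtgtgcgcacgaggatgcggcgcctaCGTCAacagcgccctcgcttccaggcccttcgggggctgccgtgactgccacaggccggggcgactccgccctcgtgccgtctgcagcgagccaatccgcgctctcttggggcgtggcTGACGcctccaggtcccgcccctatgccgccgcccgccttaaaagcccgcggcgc

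In these stretches the cores of Nr4a1 began between 233 and 40 bases before the start site, those of Nr4a2 between 200 and 111, and the 3 shown for Nr4a3 between 231 and 205. The Nr4a1 stretch lies inside the gene as GENCODE bounds it, outside annotated exons. The remaining core of Nr4a3 lay in bases that GENCODE counts as transcribed and is not shown. Stretches are shown for windows with at least 2 cores, and Rgs2 is included because its window held 2. At least 2 were held by 5.01% of all windows. Pde4b had 1 core in 1 of its 4 windows, and Pde4d and Pde10a had none in theirs. Over all genes tested that had a window, the median log2 ratio was -0.23 for 7401 genes with no core, -0.20 with 1, -0.15 with 2, -0.19 with 3 and -0.18 for 63 genes with 4 or more. A match describes letters only and is no evidence of a bound factor.

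Crem and Sik1, which both feed back on CREB, differed from each other. Crem lies at chr18:3266048-3337748 on the minus strand (ENSMUSG00000063889.16) and was counted at 106 CPM with RNA-Best against 98.1 CPM with RNAlater. The log2 ratio was 0.11 (0.05 to 0.16), at the 75.7th percentile of all genes tested. Crem has 39 annotated transcripts, from several promoters, and counts per gene do not tell the activators from the repressor. Its counts held fractions, and 472 of its exonic bases are shared with the antisense gene Gm6225, which had 5.08 and 3.94 CPM. The strand setting of the counting was not stated, so reads of the pair cannot be told apart. Sik1, a salt-inducible kinase, lies at chr17:31844250-31855804 on the minus strand (ENSMUSG00000024042.6) and had 89.9 CPM with RNA-Best against 162 CPM with RNAlater. Its log2 ratio of -0.85 (-0.90 to -0.80) lay at the 8.37th percentile. Per length, Sik1 was the highest of the salt-inducible kinases in both libraries, at 19.9 and 35.8 CPM per kb of its longest transcript, followed by Sik3 at 8.17 and 13.4 CPM per kb. Crem was likewise above Atf1 and Creb1, with 36.0 CPM per kb in RNA-Best and 33.5 CPM per kb in RNAlater against 10.8 and 12.6 for Atf1.

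All 3 phosphodiesterase genes were lower in RNA-Best, none of them by 2-fold. Pde4b, which encodes a cAMP-specific enzyme, lies at chr4:102087543-102607259 on the plus strand (ENSMUSG00000028525.16) and had 114 CPM with RNA-Best against 206 CPM with RNAlater. The log2 ratio of -0.86 (-0.91 to -0.81) was the second lowest of the 9, and its interval overlapped that of Sik1. Pde10a, whose enzyme acts on cAMP and cGMP, lies at chr17:8525372-8986648 on the plus strand (ENSMUSG00000023868.15) and had 20.9 and 33.7 CPM, for a ratio of -0.68 on the log2 scale (-0.81 to -0.58). Pde4d, the relative of Pde4b, lies at chr13:108449948-109953461 on the plus strand (ENSMUSG00000021699.17) and had the fewest counts of the 9. Its 668.11 counts with RNA-Best and 765 with RNAlater came to 12.4 and 17.0 CPM. On the log2 scale the ratio was -0.44 (-0.61 to -0.31). The intervals of Pde4d and Pde10a overlapped at their ends, and the difference between their ratios was not tested. Among the 23 phosphodiesterase genes analysed, Pde4b ranked first per length in RNAlater, at 48.0 CPM per kb, ahead of Pde6d at 41.5. In RNA-Best the order was turned, with Pde6d at 49.9 and Pde4b at 26.4 CPM per kb. Pde6d encodes a carrier of prenylated proteins and has a longest transcript of 1306 bases against 4304 for Pde4b. Pde10a held rank 10 in RNA-Best and rank 8 in RNAlater, and Pde4d held rank 9 in both.

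Rgs2 was the second most abundant of the 9 genes and was slightly higher in RNA-Best. It lies at chr1:143999338-144004161 on the minus strand (ENSMUSG00000026360.9) and was counted 29710 times in RNA-Best and 22880 times in RNAlater, all whole reads, which gave 551 and 509 CPM. The log2 ratio was 0.11 (0.09 to 0.14), at the 76.3rd percentile of all genes tested, and its interval lay within that of Crem. Rgs2 ranked first per length among 21 RGS genes in both libraries, at 182 CPM per kb in RNA-Best and 169 in RNAlater, and Rgs4 came second at 37.8 and 40.5. Rgs2 and Nr4a1 are the members for which the study designed qPCR primers, which are shown because they mark where on the transcript those assays read.
Nr4a1 forward: gctagagtctgccttcctgga
Nr4a1 reverse: tcccctcaccgggtttaga
Rgs2 forward: tacacaatcccctgcacca
Rgs2 reverse: ggctgagggacatagcatct

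Each primer pair matched annotated transcripts of 1 gene only. The Nr4a1 product spans bases 1527 to 1594 of the transcript of 2553 bases, in the coding sequence, and begins 1027 bases from its 3′ end. The Rgs2 product spans bases 2757 to 2824 of the transcript of 3021 bases, in the 3′ untranslated region, and begins 265 bases from its end. Both products are 68 bases long. No qPCR value was analysed here.

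Levels of different genes were compared per length, as CPM per kb of the longest annotated transcript. In RNAlater the order was Nr4a1 (530 CPM per kb), Rgs2 (169), Nr4a2 (60.9), Nr4a3 (49.7), Pde4b (48.0), Sik1 (35.8), Crem (33.5), Pde10a (4.34) and Pde4d (4.05). Counting intervals of neighbours overlapped for Nr4a3 and Pde4b and for Pde10a and Pde4d, and for no other neighbours. In RNA-Best the order was Nr4a1 (357), Rgs2 (182), Nr4a2 (39.5), Crem (36.0), Pde4b (26.4), Nr4a3 (22.3), Sik1 (19.9), Pde4d (2.95) and Pde10a (2.69), and the intervals of Pde4d and Pde10a alone overlapped. Crem thus held place 7 with RNAlater and place 4 with RNA-Best. The order depends on the length assigned to each gene, and with the median length of its annotated transcripts Rgs2 passed Nr4a1 in RNA-Best, at 780 against 542 CPM per kb. Under that length 4 of the 9 genes kept their place in RNAlater and none did in RNA-Best.

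**Figure D2:**
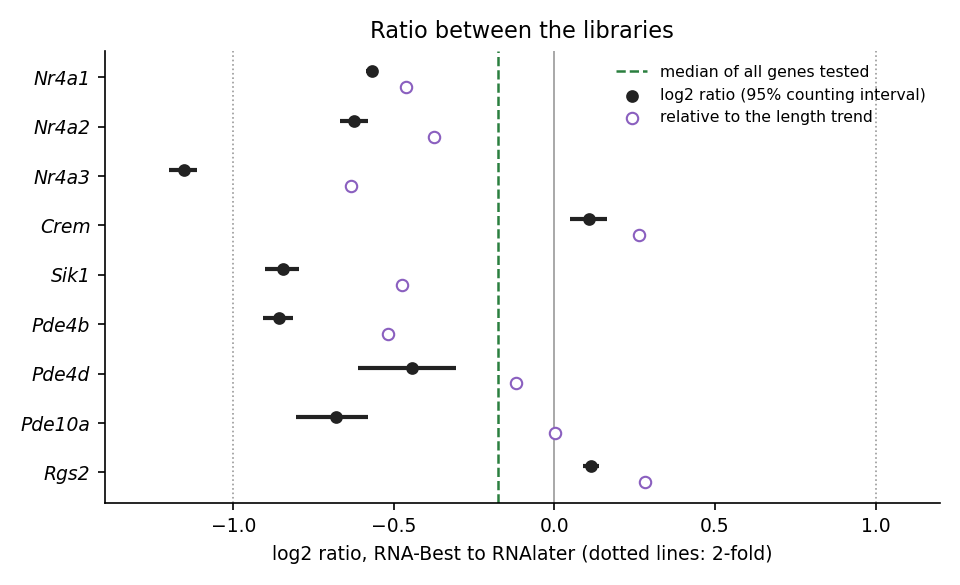
log2 ratio of RNA-Best to RNAlater for each gene (filled circles, bars are 95% counting intervals) and the same ratio relative to the trend on transcript length (open circles). The dashed line is the median of all genes tested, at -0.18, and the dotted lines mark 2-fold. Crem and Rgs2 lie to the right of 0 on both measures, and Nr4a3 is the leftmost on both.

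Across all genes tested the ratio was lower for longer transcripts, with a median of 0.29 up to 1 kb and -0.90 over 10 kb, so each member was set beside genes of like length. The longest transcripts of the 9 genes ranged from 2553 bases for Nr4a1 to 7769 bases for Pde10a, with a median of 4207 against 3086 for all genes tested. Between 4 and 6 kb, the class of Nr4a3, Sik1, Pde4b and Pde4d, the median log2 ratio of 3464 genes was -0.40, and 5.66% of them were at least 2-fold lower. Relative to a LOWESS trend on length, 6 of the 9 genes were lower and 3 higher, with a median of -0.37 against 0.01 for all genes. Nr4a3 remained the lowest, at -0.64, followed by Pde4b at -0.52, Sik1 at -0.47, Nr4a1 at -0.46 and Nr4a2 at -0.37. None of the 9 lay at least 2-fold below the trend, where 0.565% of all genes did. Pde4d lay at -0.12 and Pde10a at 0.00, so Pde10a differed by as much as the trend at its length. Crem and Rgs2 lay 0.26 and 0.28 above the trend. Nr4a1 has the shortest of these transcripts, and genes of 2 to 3 kb had a median of -0.09 against its -0.57.

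**Figure D3:**
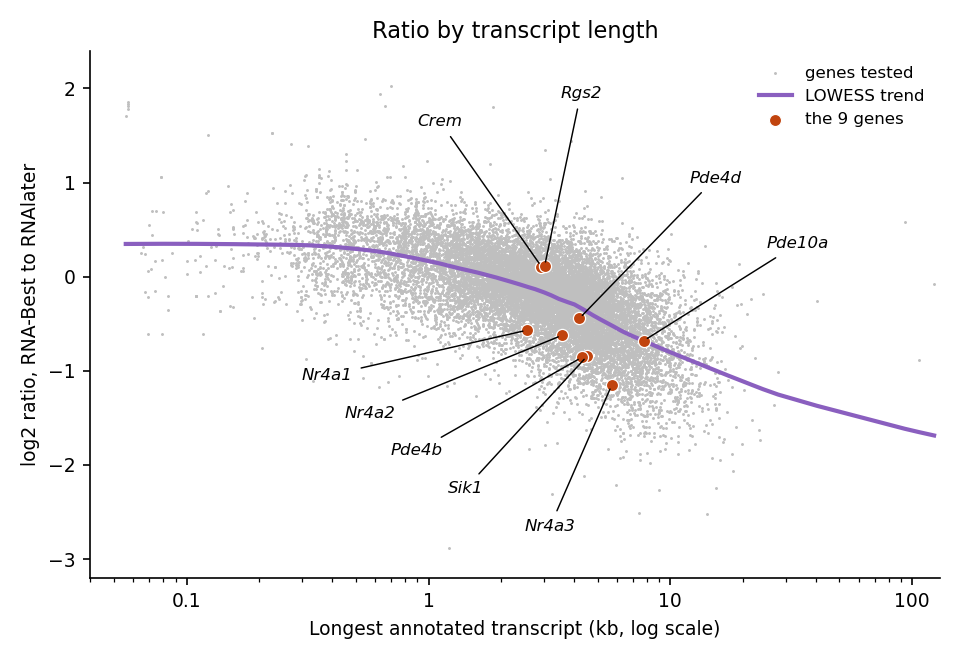
log2 ratio of RNA-Best to RNAlater against the length of the longest annotated transcript in kb (log scale) for all genes tested with a length (grey), with the LOWESS trend (line) and the 9 genes (large points, named). Pde10a lies on the trend, Crem and Rgs2 lie above it, and Nr4a3 is the farthest below it of the 9.

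A short run of letters was also counted in the 3′ untranslated regions. AUUUA, written ATTTA in the reference, is the core of the AU-rich elements that mark many short-lived early mRNAs. On the sense strand of the longest coding transcript it occurred from 1.48 times per kb of 3′ untranslated region in Sik1 to 6.14 times in Crem. The density exceeded the median of 13235 genes tested, 1.36 per kb, in all 9. The margin was small for Sik1 and Pde4b, with 3 matches each and 1.48 and 1.56 per kb. Members include known early genes, so the density was not independent of their choice. Nr4a1 had 3 matches in 543 bases, or 5.52 per kb, and Nr4a3 had 5 in 3093 bases, or 1.62 per kb, also near the median. Rgs2, which had the highest ratio, had 2.13 per kb. Whether the density went with the ratio was not tested.

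The rest of the cAMP pathway was read from 10 lists with 117 genes, of which 116 had a row and 99 passed the limit of 1 CPM. Of the 99 genes, 8 (8.08%) were at least 2-fold lower in RNA-Best, against 4.99% of all genes tested, and none was at least 2-fold higher, against 0.273%. In CPM, 87 of the 99 were lower, where 67% of all genes were. The median log2 ratio was -0.37, and relative to the length trend it was -0.11. Their median transcript length was 4006 bases. None of the 99 lay at least 2-fold below the trend, where 0.565% of all genes did, and the lowest was Ep300 at -0.77.

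Upstream of cAMP, all 7 receptor genes tested were lower in CPM, where 67% of all genes tested were. Their median was -0.58 (-0.29 relative to the length trend). None was at least 2-fold lower with 0.5 CPM added, although the weakly expressed Adora2a and Gipr were without that addition. They ranged from Adora2a, an adenosine receptor gene (1.54 and 3.21 CPM, log2 ratio -0.86), to Crhr1, which encodes the receptor for corticotropin-releasing hormone (9.55 and 10.6 CPM, -0.15). The G protein alpha subunit genes had a median of -0.25 (-0.05 relative to the length trend), from Gnaq at -0.83 to Gnai1 at 0.11. Of these 9 genes, 7 were lower in CPM, against 67% of all genes tested. Adenylyl cyclase genes had a median of -0.72 (-0.24 relative to the trend). At least 2-fold lower were 2 of the 9 tested, against 4.99% of all genes tested. These were Adcy6, at 66.0 CPM with RNA-Best against 159 CPM with RNAlater (log2 ratio -1.26, interval -1.32 to -1.21), and Adcy1, at 1.95 and 5.12 CPM (-1.20, -1.74 to -1.06). Their longest transcripts have 6038 and 12259 bases. At least 2-fold lower were 20.9% of genes of 6 to 10 kb and 42.4% of those over 10 kb. Relative to the trend, Adcy6 lay at -0.71 and Adcy1 at -0.30. Adcy9, at 4.32 CPM with RNA-Best and 8.95 CPM with RNAlater, was at least 2-fold lower without the added 0.5 CPM. With it, the log2 ratio was -0.97. Adcy8, the highest of the list, stood at 0.13.

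Protein kinase A subunits and inhibitors had a median of -0.12 (0.09 relative to the trend) and ranged from Prkar2a at -0.42 to the inhibitor gene Pkib at 0.30. The exchange factors activated directly by cAMP, Rapgef3 and Rapgef4, stood at -0.57 and -0.43. All 9 CREB factors, coactivators and salt-inducible kinases were lower in CPM, where 67% of all genes tested were. Their median was -0.77. Relative to the length trend this median was -0.14, above those of the receptors and cyclases. The lowest was Ep300, a histone acetyltransferase and CREB coactivator, at 21.3 and 63.5 CPM (log2 ratio -1.55, -1.68 to -1.48), and Crtc3, a coactivator that Sik1 can phosphorylate, stood at -1.01 (-1.18 to -0.91). Atf1 was the highest at -0.22. The Nr4a partners Rxra, Rxrb and Rxrg had a median of -0.13 (-0.08 relative to the trend), from Rxra at -0.70 to Rxrb at 0.06.

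The phosphodiesterase genes other than the 3 described had a median of -0.48 over 14 genes (-0.15 relative to the trend). Pde3a was at least 2-fold lower, at 1.80 and 4.85 CPM (log2 ratio -1.22, -1.79 to -1.08), and lay at -0.32 relative to the trend. Pde6d was the highest at 0.26. The other RGS genes had a median of -0.34 over 16 genes (-0.09 relative to the trend). They ranged from Rgs5 at -0.84, a gene also used as a pericyte marker, to Rgs17 at 0.29. In CPM, 13 of the 16 were lower, against 67% of all genes tested. Among 21 other CREB target genes the median was -0.19, beside -0.18 for all genes, and relative to the length trend it was -0.17, beside 0.01. At least 2-fold lower were 3 of the 21, against 4.99% of all genes. Irs2, an adaptor of the insulin receptor, had 56.8 and 143 CPM (-1.33), the clock gene Per1 had 78.4 and 165 CPM (-1.07), and the activin subunit gene Inhba had 1.06 and 3.07 CPM (-1.20). The highest were Cga at 0.60 and Pomc, a target of the Nr4a receptors, at 0.48, with transcripts of 707 and 1043 bases. Under TMM, 6 of the 99 pathway genes were 2-fold lower, and Crtc3 and Per1 were the ones lost.

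**Figure D4:**
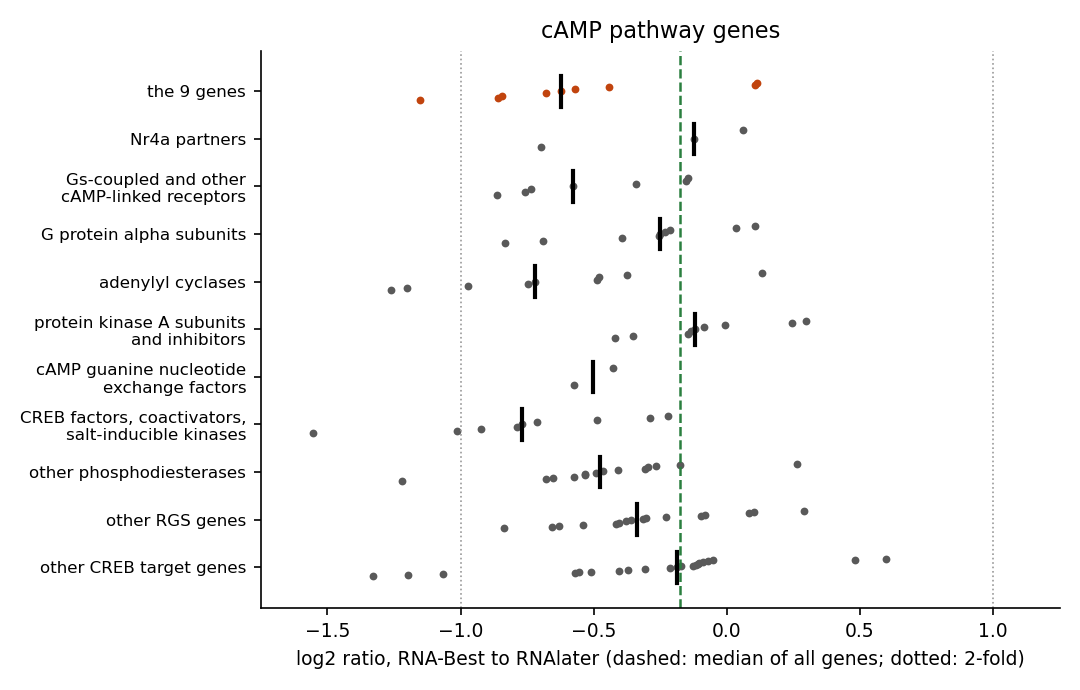
log2 ratio of RNA-Best to RNAlater for the 9 genes and for the tested genes of each cAMP pathway list (points are genes, black bars are list medians). The dashed line is the median of all genes tested and the dotted lines mark 2-fold. Transcript length is not taken into account here. Medians of the pathway lists run from -0.77 for the CREB factors to -0.12 for protein kinase A.

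The defining markers of pituitary endocrine cells were present, with 10 of 10 detected (2 lower, from Tbx19 at -0.15 to Tshb at 0.73). Their summed levels were 307185 CPM with RNA-Best against 239216 CPM with RNAlater, of which Prl alone gave 235654 and 172302 CPM. Markers of other cells also differed between the libraries, where 67% of all genes tested were lower and the ratio fell with transcript length. Relative to the length trend, median ratios were 0.21 (endocrine), -0.66 (endothelial), -0.43 (pericyte and fibroblast) and -0.36 (stem and folliculostellate). For posterior lobe, macrophage and erythroid markers they were -0.27, 0.07 and 0.70. Endothelial markers summed to 430 CPM with RNA-Best against 813 CPM with RNAlater (9 of 10 lower, from Kdr at -1.63 to Egfl7 at 0.04). Pericyte and fibroblast markers summed to 608 and 815 CPM (10 of 10 lower, Col1a1 -1.37 to Ogn -0.16), stem and folliculostellate markers to 155 and 218 CPM (9 of 9, Sox9 -0.92 to Fxyd1 -0.08), and posterior lobe markers to 140 and 247 CPM (8 of 8, Nkx2-1 -1.28 to Rax -0.31). Macrophage markers summed to 225 and 212 CPM (5 of 10 lower, Cx3cr1 -0.82 to C1qa 0.56), and erythroid markers to 3200.4 and 1130 CPM (none of 5 lower, Alas2 0.67 to Hbb-bt 2.02). No marker was at 0 in both libraries. Early genes can be induced in any of these cells, and the part of cell makeup in the ratios of the 9 genes was not tested.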

How the data were processed

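Poly(A) RNA of 2 samples was sequenced, 1 stabilized in RNA-Best and 1 in RNAlater, and samples were grouped by the stabilizer in the labels. The authors deposited 1 table of estimated counts per gene, not normalized: per the labels, reads were aligned with STAR 2.5.1b to mm10 and counted with featureCounts 1.5.0-p1. Of the values above 0, 35.4% in RNA-Best and 34.9% in RNAlater were not whole numbers. The option that splits reads and the strand setting were not given in the sources used here. The totals were 53915047 and 44917492 counts, and a count of 0 allows up to 3 counts, or 0.0556 and 0.0668 CPM.

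Identifiers were matched, without version, to GENCODE M21 on GRCm38 (46574 of 47069), which also gave transcript lengths. Counts were scaled to CPM by the library total, and log2 ratios were computed with 0.5 CPM added, for genes whose mean reached 1 CPM, which understates the ratio of weak genes. With 1 library per group no model such as that of the study could be fitted, so a fixed limit of 2-fold replaced a test. Intervals of ratios were exact conditional binomial intervals of rounded counts, without the added 0.5 CPM, and those of levels were exact Poisson intervals, both at 95%. The length trend was a LOWESS fit with a span of 0.2. Alternatives were the pseudocount, the filter, TMM (edgeR 4.0.16), DESeq2 1.42.0 size factors, totals without Prl and Gh, and removal of the length trend. The ratios, their intervals and the length trend were tested on simulated Poisson counts. These hold no PCR copies and no spread between replicates, so the test checks the computation and not the intervals for these libraries.

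The genes named were the 9 members, the highest and lowest ratio of each list and pathway genes past 2-fold. Sik3, Gipr, Adcy9, Creb1, Rxrg, Rgs4, Pomc, Gm6225 and the levels of Pde6d and Prl were named after their values were seen. The 9 members and the lists were chosen with earlier results of these data known, and Pde2a was not analysed here. Promoter windows were RefSeq sequences on GRCm38.p6, and primers were taken from the study's primer table. Python 3.11.15, scipy 1.17.1, statsmodels 0.14.6 and R 4.3.3 were used.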

Additional observations from a re-analysis of the deposited data

How the results depend on the processing

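Over 10 alternatives of the ratio, Nr4a1, Nr4a2, Nr4a3, Sik1 and Pde4b stayed lower in RNA-Best, and Crem and Rgs2 stayed higher. Pde4d turned to 0.16 relative to the trend on all exons joined, and Pde10a to 0.00 and 0.02 relative to the trends on the longest and the longest coding transcript. The number of the 9 genes at least 2-fold lower was 1 with both other pseudocounts, both other filters and totals without Prl and Gh, and 0 under TMM, DESeq2 size factors and each of the 3 length trends. The number at least 2-fold higher was 0 throughout, and 6 or 7 lay below the median of all genes. The median log2 ratio of the members came to -0.43 with TMM, -0.44 with DESeq2 size factors, -0.50 without Prl and Gh, and relative to the length trends -0.37 (longest transcript), -0.30 (all exons joined) and -0.33 (longest coding transcript, chosen after seeing the data). In the order of levels per length, 4 of the 9 genes kept their place in RNAlater and 0 in RNA-Best with the median transcript length, and 7 and 3 with all exons joined. Both scalings moved the centre of all genes and the trends removed the mean ratio at each length, which changes the members by construction. No paired analysis was possible because only 1 library stood in either arm, and no replicate could be left out. Depth limits Pde4d most, whose counting interval reached from -0.61 to -0.31.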
